A study of Mus musculus with 9 samples.

Results

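The 4 genes described here are the Runx family, *Runx1*, *Runx2* and *Runx3*, and *Cbfb*, which encodes their shared partner CBFβ. They were taken by name, with earlier results of these data known, and all 4 were found among the 55228 genes of the count table and among the 15253 genes that passed the filter on low counts. Their RNA was measured in 9 cultures of HC11, a mouse mammary epithelial line from BALB/c mice, with 3 cultures each of the parental line (*WT*) and of the lines *KD1* and *KD2*. The labels name these lines Vangl2 knockout 1 and Vangl2 knockout 2. Each was grown from a single colony after Cas9 and 1 guide against *Vangl2*, a core gene of planar cell polarity, had been delivered with a repair template carrying stop codons, and loss of the protein was assessed by Western blot in the study. All 9 cultures were undifferentiated and grown in 10% fetal bovine serum with 5 µg/mL insulin and 10 ng/mL epidermal growth factor. *WT* is an uncloned population and each *KD* line is 1 clone, so an effect of the edit and a property of the founding cell cannot be told apart, and no cloned line made without a guide was analysed here. The labels do not say that the 3 cultures of a line were separate derivations, so p-values measure the spread between these cultures.

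RUNX proteins are transcription factors that bind DNA through the Runt domain. CBFβ does not touch DNA itself but binds the Runt domain, which strengthens its hold on DNA and protects the RUNX protein from degradation. RUNX1 is best known as a factor that forms blood stem cells, RUNX2 as the master factor of bone-forming osteoblasts, and RUNX3 for its roles in T cells, sensory neurons and gastric epithelium, while in the mammary gland RUNX1 and RUNX2 are both made by epithelial cells. Each Runx gene is read from a distal promoter, P1, and a proximal promoter, P2, which give proteins with different first residues. Depending on their partners, the same RUNX proteins activate or repress their targets.

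The genes lie on 4 chromosomes of GRCm38. *Runx1* (ENSMUSG00000022952) lies on the minus strand at chr16:92601466-92826149, *Runx2* (ENSMUSG00000039153) on the minus strand at chr17:44495987-44814797, *Runx3* (ENSMUSG00000070691) on the plus strand at chr4:135120652-135177990 and *Cbfb* (ENSMUSG00000031885) on the plus strand at chr8:105170674-105217989. Promoter windows of 300 bases, 250 before and 50 after the annotated start, were taken from RefSeq (GRCm38.p6), which gave 6 windows for the 4 genes. They were searched on both strands for the RUNX core motifs TGTGGT and TGCGGT, which do not overlap one another in these windows. *Runx2*, for which there was 1 window, held 4 matches, the distal windows of *Runx1* and *Runx3* held 2 each, and the proximal windows of *Runx1* and *Runx3* and the window of *Cbfb* held 0. Of 32851 promoter windows of the same length, 22.4% held at least 1 match to either motif (TGTGGT 16.8%, TGCGGT 6.45%), 2.86% held at least 2 and 0.0639% held at least 4. The longest run of bases common to the *Runx2* window and to the distal windows of *Runx1* and *Runx3* was 18 bases long and held a tandem pair of matches. It was present in 4 of the 32851 windows, the fourth belonging to *Gm16225*, whose window overlaps that of *Runx3* on the opposite strand. The run is shown with 6 bases on each side because it is common to 3 genes whose transcripts differed in how far they changed. Each sequence is written 5′ to 3′ on the strand of its gene, with the motif letters, here mostly ACCACA as the reverse complement of TGTGGT, in capitals.
Runx1 distal window, chr16:92826025-92826054, minus strand: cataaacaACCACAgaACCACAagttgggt
Runx2 window, chr17:44814583-44814612, minus strand: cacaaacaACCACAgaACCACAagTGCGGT
Runx3 distal window, chr4:135120503-135120532, plus strand: gtccctcaACCACAgaACCACAaggccagg
The run began 27 bases into the transcript in *Runx1* and 22 bases into it in *Runx2*, counting the start as base 1, but 136 bases before the start in *Runx3*. A match describes letters only and is not evidence of binding. Counts were made per gene, so transcripts from P1 and P2 cannot be told apart in the values that follow.

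Library sizes ranged from 19231428 to 28360592 counts, and values are given as CPM, counts scaled to the TMM-adjusted library total and to a common size, so that 3 counts, the least taken as detection, correspond to between 0.0999 and 0.154 CPM. *KD2* replicate 3 and *WT* replicate 1 stood apart from the other cultures of their lines, with chi-square values per degree of freedom over genes of at least 11.2 and 7.19 respectively, against 1.47 and 2.51 between the other two cultures of each line. *Vangl2* itself was at 3.38, 3.96 and 4.20 CPM in *WT*, at 2.77, 1.89 and 2.78 CPM in *KD1* and at 3.64, 3.93 and 4.43 CPM in *KD2*. It was lower in *KD1* (log2 fold change -0.63, SE 0.17, edgeR adjusted p = 0.0058) but not detectably changed in *KD2* (0.05, adjusted p = 0.81, 95% interval -0.30 to 0.40), so the RNA level did not by itself mark *KD2* as edited. Of 7 markers of mammary epithelium, 6 were above 1 CPM in every line and *Krt19* had no count in any culture. Their summed level was 4818 to 5389 CPM in the *WT* cultures, 5464 to 5607 CPM in those of *KD1* and 2873 to 3564 CPM in those of *KD2*. From *WT* to *KD2*, mean levels fell for *Krt5* (2117 to 1088 CPM), *Krt14* (1527 to 819), *Epcam* (551 to 428) and *Cdh1* (692 to 428). They rose for *Krt8* (158 to 268 CPM) and *Krt18* (125 to 136). Blood cell markers, which bear on the cells in which *Runx1* and *Runx3* are best known, summed to at most 0.300 CPM in any culture, and the defining marker *Ptprc* had at most 2 counts.

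*Runx1* differed least of the 4 genes. It was at 134, 143 and 130 CPM in *WT*, 119, 118 and 116 CPM in *KD1* and 124, 121 and 118 CPM in *KD2*. Every *KD* culture lay below every *WT* culture, and the cultures of *KD1* and *KD2* overlapped. The share of all genes whose cultures separate by line was not counted, here or for the genes below. The mean was 136 ± 6.23 CPM (SD, n = 3) in *WT*, 118 ± 1.55 in *KD1* and 121 ± 3.00 in *KD2*, which gives a log2 fold change of -0.21 (SE 0.055, edgeR quasi-likelihood test with Benjamini-Hochberg adjustment, adjusted p = 0.0055) and of -0.17 (SE 0.055, adjusted p = 0.017). These small differences rested on 1 culture: without *WT* replicate 2, the highest, they were -0.15 (adjusted p = 0.058) and -0.11 (adjusted p = 0.15). The difference in *KD2* was also not past the threshold with library size alone (-0.06, adjusted p = 0.39). That setting moved the median of all genes by 0.11 in *KD2* against *WT*.

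*Runx2* separated all 3 lines. Its level was 146, 135 and 135 CPM in *WT*, 43.9, 45.1 and 42.7 CPM in *KD1* and 104, 99.1 and 94.3 CPM in *KD2*. The 3 groups did not overlap, and *KD2* lay between *KD1* and *WT*. *Runx2* was 3.16-fold lower in *KD1* than in *WT* (log2 fold change -1.66, SE 0.062, adjusted p = 3.3e-11) and 1.40-fold lower in *KD2* (-0.48, SE 0.060, adjusted p = 7.7e-06). As measured in these bulk RNA samples, fewer cells with the transcript and less transcript per cell cannot be told apart, here or for the other genes.

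*Runx3* was arranged in the same order. It was at 114, 122 and 119 CPM in *WT*, 32.8, 33.3 and 31.2 CPM in *KD1* and 91.4, 86.6 and 94.9 CPM in *KD2*, again with no overlap between lines. The reduction against *WT* was 3.64-fold in *KD1* (log2 fold change -1.86, SE 0.062, adjusted p = 9.3e-12) and 1.30-fold in *KD2* (-0.38, SE 0.059, adjusted p = 6e-05).

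*Cbfb* ordered the lines differently. It was at 436, 389 and 419 CPM in *WT*, 272, 280 and 273 CPM in *KD1* and 231, 239 and 193 CPM in *KD2*. All cultures of *KD2* were lowest and all of *WT* highest. The level was 1.51-fold lower than *WT* in *KD1* (log2 fold change -0.59, SE 0.076, adjusted p = 1.4e-05) and 1.87-fold lower in *KD2* (-0.91, SE 0.076, adjusted p = 1.6e-07). *KD2* replicate 3, which stood apart over all genes, was also the lowest for *Cbfb*, and without it the *KD2* difference was -0.79 on the log2 scale.

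**Figure D1:**
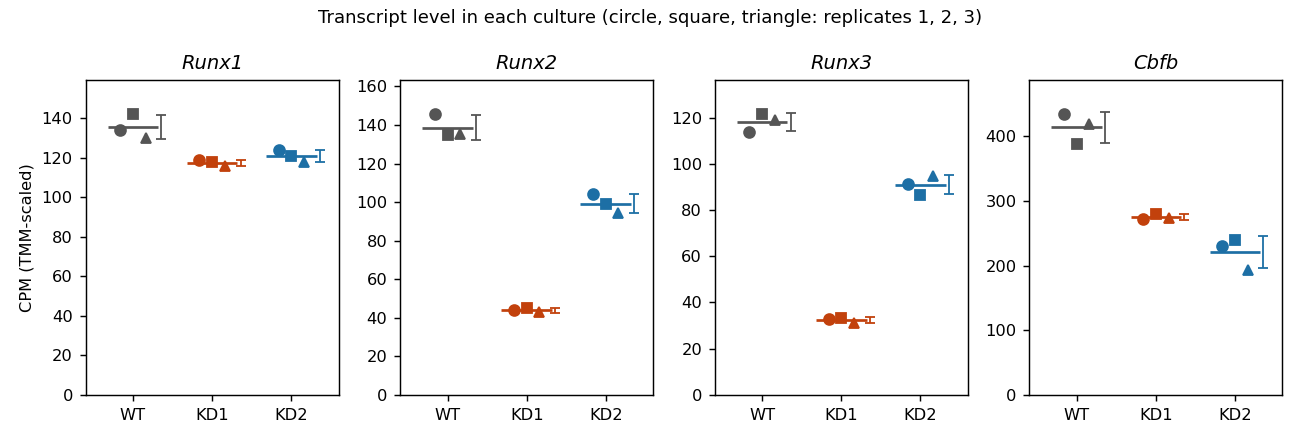
TMM-scaled level in CPM (vertical axes, each starting at 0) of *Runx1*, *Runx2*, *Runx3* and *Cbfb* in the 3 cultures of *WT*, *KD1* and *KD2*. Symbols are cultures, horizontal lines are means and bars are 1 SD over 3 cultures; *Runx2* and *Runx3* were lowest in *KD1* (43.9 and 32.4 CPM on average), *Cbfb* was lowest in *KD2* (221 CPM), and *Runx1* was between 116 and 143 CPM throughout.

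In *KD1* against *WT*, 4 of 4 genes were lower at an adjusted p under 0.05, where 56.9% of all genes tested passed that threshold in either direction. Of the 4, *Runx2* and *Runx3* also passed an absolute log2 fold change of 1 in the lower direction, as did 7.49% of all genes; 0 did so in the higher direction, as did 9.34% of all genes. In *KD2* against *WT*, 4 of 4 were again lower, where 67.2% of genes passed in either direction, and 0 passed the larger threshold (14.5% of all genes higher, 6.71% lower). With backgrounds this large, passing the p threshold is not particular to these genes. The share of all genes that were lower at the p threshold was not counted separately. The comparisons with *WT* share the *WT* cultures and are therefore not independent.

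The lines were then compared directly, which also tests whether their differences from *WT* are unequal. At an adjusted p under 0.05, 3 of the 4 genes differed, where 67.8% of all genes did. *Runx2* was 2.26-fold higher in *KD2* than in *KD1* (log2 fold change 1.18, SE 0.062, adjusted p = 9.1e-10), and *Runx3* was 2.80-fold higher (1.49, SE 0.062, adjusted p = 6.8e-11). These were the 2 that passed the larger threshold in the higher direction, as did 14.7% of all genes, and 0 passed it in the lower direction, as did 8.58%. *Cbfb* was 1.24-fold lower in *KD2* than in *KD1* (-0.31, SE 0.076, adjusted p = 0.0022), so that it moved between the *KD* lines opposite to *Runx2* and *Runx3*. The *Cbfb* difference was smaller with library size alone (-0.19, adjusted p = 0.037). For *Runx1* no difference was detected (0.04, adjusted p = 0.52), with a 95% interval of -0.08 to 0.16 on the log2 scale. *Runx1* did differ, at 0.17 (adjusted p = 0.016), when libraries were scaled by size alone, a setting that moved the median of all genes by 0.13.

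**Figure D2:**
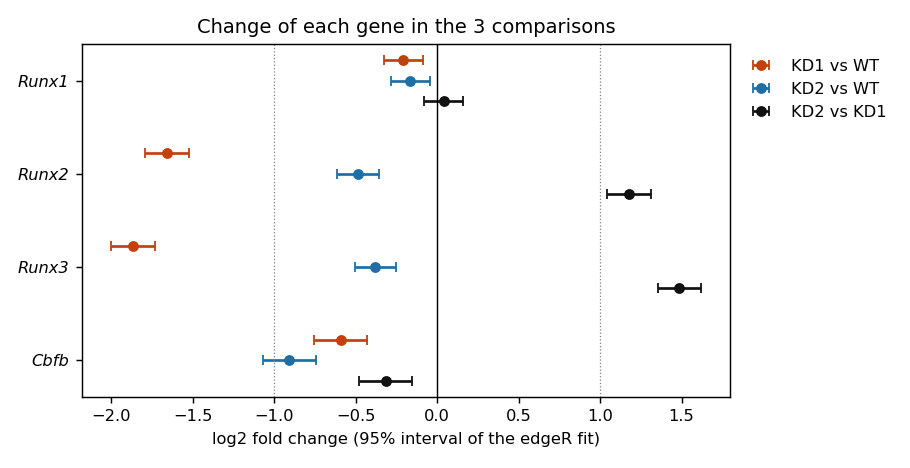
Log2 fold change (horizontal axis) of each gene in *KD1* against *WT*, *KD2* against *WT* and *KD2* against *KD1*, with 95% intervals from the edgeR fit of 9 cultures. Dotted lines mark a log2 fold change of 1 in each direction; *Runx2* (-1.66) and *Runx3* (-1.86) lay beyond it in *KD1*, and no gene did in *KD2* against *WT*, where *Cbfb* at -0.91 was nearest.

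Levels can be set beside each other between genes only per length, and CPM per kb of merged exon was used. In *WT*, *Cbfb* was at 119 ± 6.86 CPM per kb (SD, n = 3), above *Runx3* at 23.6 ± 0.80, *Runx2* at 15.7 ± 0.71 and *Runx1* at 11.3 ± 0.52. In *KD1*, *Cbfb* at 79.0 ± 1.26 was followed by *Runx1* at 9.77 ± 0.13, *Runx3* at 6.49 ± 0.23 and *Runx2* at 4.97 ± 0.13. In *KD2* the order on this scale was that of *WT*, with *Cbfb* at 63.5 ± 7.15, *Runx3* at 18.2 ± 0.83, *Runx2* at 11.2 ± 0.56 and *Runx1* at 10.1 ± 0.25, the last pair lying close, at 10.7 to 11.8 and 9.80 to 10.3 CPM per kb. The ranges of neighbouring genes did not overlap in any line, but the order of *Runx1* and *Runx2* in *WT* and in *KD2* turned with the length chosen. With the longest annotated transcript, *Runx1* had the larger share of the summed Runx level in *WT* (30.8%, against 28.6% for *Runx2*) and in *KD2* (34.7%, against 25.8%).

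The summed level of the 3 Runx genes was 50.6 ± 0.79 CPM per kb in *WT*, 21.2 ± 0.46 in *KD1* and 39.5 ± 0.88 in *KD2*. *Runx1* made up 22.3% ± 0.67 of that sum in *WT*, 46.1% ± 0.57 in *KD1* and 25.5% ± 0.63 in *KD2*. *Runx3* made up 46.7% ± 1.36, 30.5% ± 0.41 and 46.1% ± 1.77 in the same order, and *Runx2* 31.0% ± 1.57, 23.4% ± 0.25 and 28.4% ± 1.21. Thus *KD1* was the line in which *Runx1* was the leading Runx transcript, whereas *Runx3* led in *WT* and *KD2*, with either length. *Cbfb* exceeded the Runx sum in every culture, by a ratio of 2.35 ± 0.16 in *WT*, 3.72 ± 0.07 in *KD1* and 1.61 ± 0.19 in *KD2*. The ratio was highest in *KD1* and lowest in *KD2*, with no overlap between lines. These are ratios of RNA, and protein was not measured here.

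**Figure D3:**
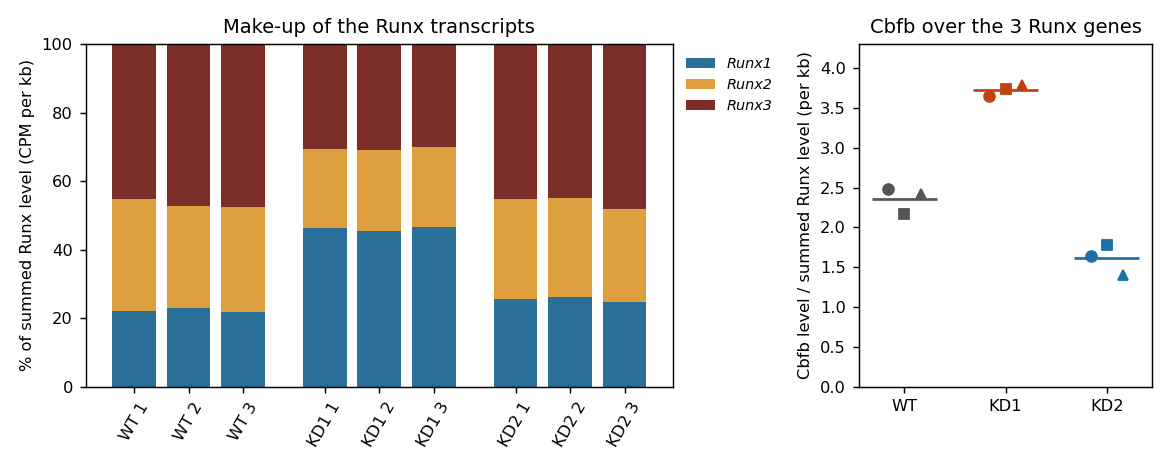
Left, percent of the summed Runx level (CPM per kb of exon) contributed by *Runx1*, *Runx2* and *Runx3* in each culture; right, the *Cbfb* level divided by that sum, with symbols for cultures and lines for means. *Runx1* contributed 45.4 to 46.5% in *KD1* and 21.7 to 26.1% in the other cultures, and the *Cbfb* ratio ran from 1.40 to 1.78 in *KD2* and from 3.65 to 3.79 in *KD1*.

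The likeness of profiles was measured as the root mean square difference of centred log2 CPM over the 9 cultures, among 11613 genes with a mean log2 CPM above 1. *Runx2* and *Runx3* were 0.15 apart, *Runx1* and *Cbfb* 0.32, and the other pairs of the 4 genes from 0.63 to 0.77. The genes nearest to *Runx2* were *Pcdh18* (0.098), *Kyat1* (0.133) and *Egr3* (0.134), and those nearest to *Runx3* were *Rhbdl3* (0.092), *Sema6a* (0.107) and *Igfbp5* (0.116). *Igfbp5*, which encodes an insulin-like growth factor binding protein, averaged 1979 CPM for *WT*, 557 for *KD1* and 1765 for *KD2*. Nearest to *Cbfb* were *4921524J17Rik* (0.043), *Fam76b* (0.045) and *Cebpg* (0.052). None were named for *Runx1*, whose line means spanned only 0.21 on the log2 scale. With 3 lines, such likeness mostly reflects the order and spacing of 3 means.

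The chromosomal surroundings of the genes were examined next. The nearest tested genes on either side of *Runx3*, *Syf2* and *Clic4*, were at -0.03 and 0.01 on the log2 scale for *KD1* against *WT* and at 0.17 and 0.03 for *KD2*, none past an adjusted p of 0.05. Over the 67 tested genes within 2 Mb of *Runx3*, the median was 0.04 in *KD1* and 0.05 in *KD2*. Around *Runx2*, the median over 56 genes was 0.08 in *KD1* and 0.27 in *KD2*, where the median of the whole of chromosome 17 was 0.28. Calls among these 56 genes numbered 8 upward against 3 downward for *KD1*. For *KD2* the calls numbered 11 upward against 1 downward. Of the nearest neighbours of *Runx2*, *Clic5* was called higher in both lines, at 8.10 in *KD1* (SE 0.22) and 3.90 in *KD2* (SE 0.33). The other neighbour, *Cdc5l*, was at 0.15 in *KD1* (adjusted p = 0.069) and 0.47 in *KD2* (adjusted p = 2.1e-05). *Supt3* is read through the 5′ part of *Runx2* on the opposite strand without sharing an exon. It was at -0.52 in *KD1* (SE 0.092, adjusted p = 0.00026) and 0.42 in *KD2* (SE 0.087, adjusted p = 0.00073). In *KD1* it was thus lower, as was *Runx2*, and in *KD2* it was higher where *Runx2* was lower. Between *KD2* and *KD1* it was higher in *KD2* (0.94, SE 0.089, adjusted p = 4.3e-07), as was *Runx2*. *Runx2os1*, an antisense gene, was at -1.16 in *KD1* (SE 0.39, adjusted p = 0.022) and 0.62 in *KD2* (SE 0.31, adjusted p = 0.094). Between *KD2* and *KD1* it was at 1.78 (SE 0.35, adjusted p = 0.00048). These values rest on 3 to 29 counts per culture, against 1060 to 3374 for *Runx2*. It shares 519 exon bases with *Runx2*, or 5.87% of the *Runx2* exon length. The protocol does not state whether strand was used in counting, and reads from such bases cannot then be assigned to either gene.

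The median around *Cbfb* was below 0 in both lines. It was -0.32 in *KD1* and -0.27 in *KD2* over the 75 tested genes within 2 Mb, of which 6 were called higher and 2 lower in *KD1*, while 7 were called higher and 11 lower in *KD2*. Over all genes tested, 9.34% were called higher and 7.49% lower in *KD1*, so calls leaned upward there too. In *KD2* these shares were 14.5% and 6.71%. All 832 tested genes of chromosome 8 had a median of -0.26 and -0.19, against -0.03 and 0.01 over all genes. *D230025D16Rik*, the next tested gene downstream, was at -0.84 in *KD1* (SE 0.062, adjusted p = 4.6e-08) and -0.69 in *KD2* (SE 0.062, adjusted p = 3e-07), both lower as was *Cbfb*. *Ces2g*, upstream, was called higher in *KD1* and lower in *KD2*. The part of this chromosome-wide shift in the *Cbfb* values was not tested. For *Runx1*, the median over 40 genes was 0.10 in *KD1* and -0.05 in *KD2*, and its neighbours *Rcan1* and *Setd4* were at 1.38 and 0.10 in *KD1* and at 0.21 and 0.49 in *KD2*. *Gm26626*, which shares 106 exon bases with *Runx1*, had 7 to 15 counts per culture. Windows of 50 exon bases that also occur in other genes made up 0.47% of *Runx1*, 5.66% of *Runx2*, which shares them with *Runx2os1* and other genes, 1.13% of *Runx3* and 0% of *Cbfb*.

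**Figure D4:**
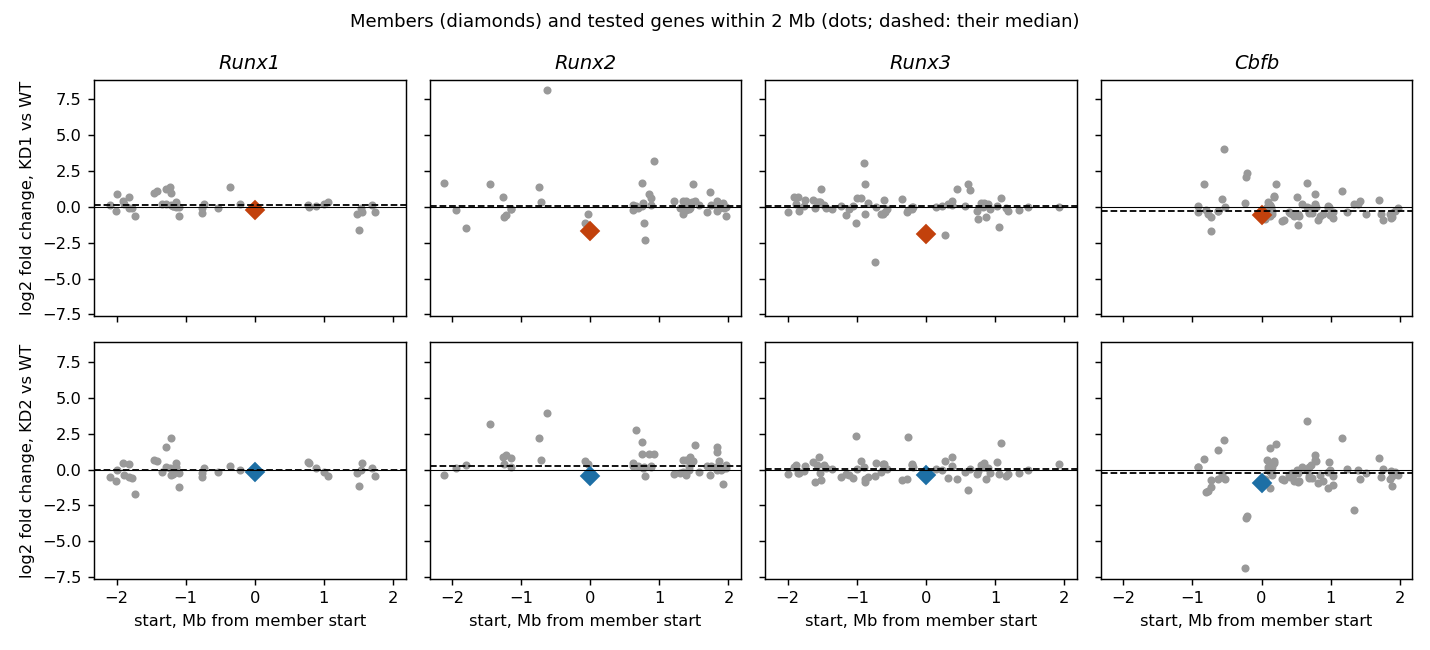
Log2 fold change against *WT* (vertical axes; *KD1* above, *KD2* below) of the 4 genes (diamonds) and of tested genes within 2 Mb (dots), by the distance in Mb of their starts from the start of the named gene. Dashed lines are medians of the dots; the median was -0.32 around *Cbfb* and 0.04 around *Runx3* in *KD1*.

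The other genes of the pathway were taken from 6 lists of partners and targets, written from general knowledge. Of 124 genes, 86 were tested. List genes were called when the adjusted p was under 0.05 and the log2 fold change beyond 1 in size, for which the shares among all genes are those given above. In *KD1*, 9 were called higher and 11 lower, or 10.5% and 12.8%; in *KD2*, 13 were higher and 3 lower, or 15.1% and 3.49%. Between *KD2* and *KD1*, 14 were higher and 8 lower. Genes detected in only some lines enter these counts by passing the filter where they are high.

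Genes for proteins that work with RUNX as co-repressors, co-activators or chromatin enzymes were mostly not called, with list medians below those of all genes. Of 24 tested, *KD1* had 0 calls upward and 2 downward, *KD2* had 1 upward and 0 downward, and the median log2 fold change was -0.26 and -0.20. *Tle2*, a Groucho co-repressor that binds the C-terminal end of RUNX proteins, was at 2.02 ± 0.45 CPM in *WT*, 0.216 ± 0.13 in *KD1* and 7.74 ± 2.56 in *KD2*. It was the gene called in both lines, lower in *KD1* (log2 fold change -3.19, SE 0.44, and -3.82 without *KD1* replicate 1) and higher in *KD2* (1.90, SE 0.25). Of 12 genes that set RUNX protein stability, such as ubiquitin ligases and kinases, 0 were called in *KD1* and 1 in *KD2*. The latter was *Hipk2*, a kinase that phosphorylates RUNX1 and its co-activators, at 53.8 ± 6.31 CPM in *WT*, 51.7 ± 0.36 in *KD1* and 148 ± 14.3 in *KD2* (1.46, SE 0.088).

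Among DNA-binding factors that act with or on RUNX proteins, 19 of 27 were tested. In *KD1*, 1 was called higher and 4 lower, with a median log2 fold change of -0.40, and in *KD2* 0 were higher and 2 lower, with a median of -0.29. *Hey1*, a Notch target whose protein represses RUNX2 function, was called lower in both lines. It had 339, 497 and 440 counts in *WT*, 11, 14 and 7 in *KD1* and 215, 217 and 165 in *KD2*, which is a log2 fold change of -5.55 (SE 0.18) and -1.29 (SE 0.11). The order of its lines was that of *Runx2* and *Runx3*.

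Genes known as RUNX2 targets in bone and cartilage showed calls in both directions. Of 22, 12 were tested, with 2 calls upward and 5 downward for *KD1*, against 4 upward and 0 downward for *KD2*. The medians were -0.15 and -0.36, so in *KD2* the median was below 0 although every call was upward. *Alpl*, the tissue-nonspecific alkaline phosphatase that osteoblasts use in mineralization, had 6 to 11 counts in *WT*, 1 to 3 in *KD1* and 64 to 80 in *KD2*, and was called lower in *KD1* and higher in *KD2* (2.80, SE 0.25). *Col1a2*, a chain of type I collagen, had 17 to 40 counts in *WT*, 0 in each culture of *KD1* and 64 to 98 in *KD2*. Against *WT*, the reduction in *KD1* was at least 10.0-fold, taking 3 counts per library as the floor, and 1.38 higher on the log2 scale in *KD2* (SE 0.23). *Mmp13*, collagenase 3, had 2 to 4 counts in *WT*, 18 to 33 in *KD1* and 12 to 20 in *KD2*. *Mmp9*, a gelatinase, had 1 to 7 counts in *WT*, 91 to 93 in *KD1* and 12 to 21 in *KD2*. With so few *WT* counts, its log2 fold change of 4.50 in *KD1* and 1.96 in *KD2* became 5.50 and 2.96 without *WT* replicate 2. Both proteases were called higher in both lines, from few counts. *Spp1* averaged 1729 CPM in *WT*, 801 in *KD1* and 1023 in *KD2*. *Col1a1* averaged 7.03, 0.571 and 4.38 CPM. Both had the line order of *Runx2*, were among the 5 called lower in *KD1*, and were not called in *KD2*. Whether any of these genes followed *Runx2* was not tested. Osteoblast markers other than *Phex* were at 0.118 CPM or less on average in each line. *Phex* itself was at 3.23, 0.529 and 2.42 CPM in *WT*, *KD1* and *KD2*.

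Genes known as RUNX1 or RUNX3 targets in blood were mostly silent, and 6 of 21 were tested. In *KD1*, 1 was called higher and 0 lower, and in *KD2* 3 were higher and 0 lower, with medians of 0.09 and 0.71. *Csf2*, which encodes the cytokine GM-CSF, had 0 counts in every *WT* culture, 51 to 57 in *KD1* and 10 to 21 in *KD2*. Against a floor of 3 counts per library, *Csf2* was at least 15.1-fold higher in the *KD1* cultures and at least 4.14-fold higher in *KD2*.

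Genes known as RUNX targets in epithelia or growth control had 13 of 15 tested. In *KD1*, 5 were called higher and 0 lower, and in *KD2* 4 were higher and 1 lower, with medians of 0.27 and 0.20. *Ccn1*, a matricellular target of YAP signalling, rose from 66.8 ± 7.84 CPM in *WT* to 202 ± 5.06 in *KD1* (log2 fold change 1.60, SE 0.078) and 246 ± 11.6 in *KD2* (1.88, SE 0.079). *Socs3*, a feedback inhibitor of cytokine signalling, rose from 63.1 ± 8.62 CPM to 179 ± 6.42 (1.50, SE 0.088) and 134 ± 8.82 (1.08, SE 0.088), and in *KD2* it lay at 0.98, just under the fold threshold, without *WT* replicate 1. *Foxa1*, a luminal pioneer factor, had 1 to 8 counts in *WT*, 76 to 83 in *KD1* and 2 to 5 in *KD2*, and was called higher in *KD1* (4.05, SE 0.33, and 4.92 without *WT* replicate 2). For *KD2* no change in *Foxa1* was detectable at this depth.

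**Figure D5:**
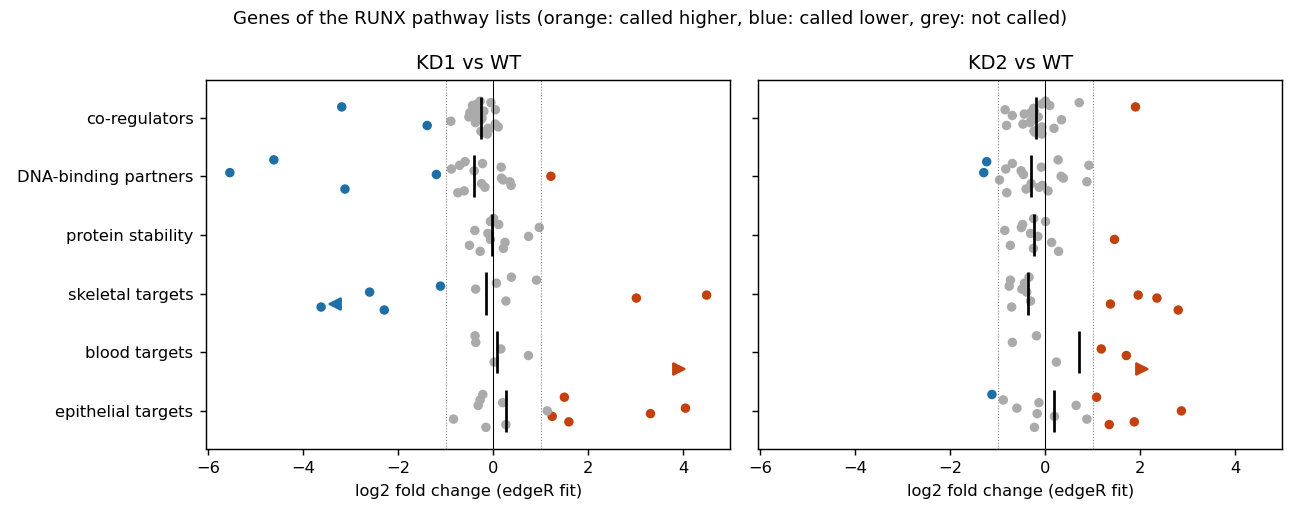
Log2 fold change against *WT* (horizontal axes, the same scale for *KD1* and *KD2*) of each tested gene in 6 lists of RUNX partners and targets; dots are genes, coloured where called, vertical bars are list medians and dotted lines mark a log2 fold change of 1. Triangles are lower bounds on the size of the change for *Col1a2* and *Csf2*, which had no count in 1 line; the calls in *KD1* include *Hey1* at -5.55 and *Mmp9* at 4.50.

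Of 6 fibroblast markers, *Pdgfrb* and *Pdgfra* had higher levels in *KD2* than in *WT*. The summed level of all 6 was 83.0 to 91.7 CPM in *KD2*, against 10.4 to 12.8 CPM in *WT* and 7.38 to 9.60 CPM in *KD1*. Most of it was *Pdgfrb*, at 66.8 CPM in *KD2* and 0.823 CPM in *WT*, and *Pdgfra* was at 16.4 and 7.96 CPM. *Col3a1* was at 2.72 CPM in *KD2* and 3.03 CPM in *WT*, while *Dcn* and *Lum* were at 0.123 CPM or less and *Thy1* had at most 1 count. Their part in the *KD2* values of the 4 genes, *Alpl* and *Col1a2* was not tested. Endothelial markers summed to 2.05 to 2.49 CPM in *WT*, 4.87 to 5.50 in *KD1* and 1.43 to 2.10 in *KD2*, with *Emcn* at 0. In *WT* and *KD1* this was mostly *Pecam1*, at 2.16 and 4.91 CPM. In *KD2*, *Pecam1* was at 0.919 CPM, *Cdh5* at 0.677 and *Tek* at 0.216, the last 2 against 0.0163 and 0.0304 in *WT*. The part of endothelial markers in the *KD1* and *KD2* values was not tested either.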

How the data were processed

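RNA was measured in 9 HC11 cultures, 3 per line. Per the labels and methods, the authors filtered polyA paired reads with fastp, used HISAT2 for alignment to GRCm38, and ran featureCounts over exons. They deposited whole-number read counts per gene, not normalized. Whether strand was used in counting is not given in the sources used here. Every one of the 9 columns matched a culture by its label.

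Counts were tested with the quasi-likelihood test of edgeR 4.0.16 (R 4.3.3, limma 3.58.1) with TMM scaling, its expression filter, 1 fit of 9 cultures and no block. P-values were adjusted by Benjamini-Hochberg over 15253 genes. Members were taken as changed at an adjusted p under 0.05, and list genes were called at that threshold with an absolute log2 fold change above 1. Of 55228 names, 53456 matched 1 gene of a GENCODE annotation of GRCm38, which gave positions and lengths. Promoters came from RefSeq. Scripts were tested on simulated data.

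The 4 members and all lists were chosen with earlier results of these data known. Named list genes are those called in both lines and, for each list and line, the called gene with the largest change at a mean log2 CPM above 0. *Spp1* and *Col1a1* were added after their values were seen and were not recomputed under the alternatives. Neighbours are the nearest tested gene on each side and genes overlapping an exon; *Supt3* was added after its values were seen. Like genes are the 3 with the smallest root mean square difference, for members whose line means span at least 0.5 log2. Alternatives were DESeq2 1.42.0 (Wald test or size factors), library size alone, no filter beyond 1 count, 10 counts in every culture, only the 6 cultures compared, the replicate block, thinned counts, each culture left out, and other gene lengths. Recomputing the named list genes and *Vangl2* in this way was chosen after seeing the data. Same-numbered cultures did not deviate together, with correlations of -0.061 to 0.072, so the numbers were not used as pairs. Intervals and floors cover counting error or culture spread only. No pair of cultures was close enough to count as 1 library. Chi-square values per degree of freedom were 1.24, 1.34 and 1.51 between the *KD1* cultures. Such values cannot tell whether the cultures of a line were grown apart.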

Additional observations from a re-analysis of the deposited data

Results flagged for a closer look

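Among the 4 genes, 3 had differences from *WT* that were unequal in *KD1* and *KD2*, by the direct test of *KD2* against *KD1* in the edgeR fit. For *Runx2* the log2 fold change against *WT* was 1.18 higher in *KD2* than in *KD1* (-0.48 against -1.66). For *Runx3* it was 1.49 higher (-0.38 against -1.86). For *Cbfb* the difference was -0.31 (-0.91 against -0.59), with *KD2* the lower line. Of all genes tested, 67.8% differed between the lines at the same adjusted p threshold.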

How the results depend on the processing

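Over 17 alternatives, the 12 comparisons of the 4 genes gave 204 values, of which 198 kept their direction and side of the threshold, 5 were no longer past it, 1 newly passed it and 0 reversed. All 6 exceptions were for *Runx1*. *Runx1* in *KD1* against *WT* ranged from -0.21 to -0.15 with cultures left out, and was -0.15 (adjusted p = 0.058) without *WT* replicate 2. In *KD2* against *WT* it ranged from -0.18 to -0.11 with cultures left out, was -0.11 (adjusted p = 0.15) without *WT* replicate 2, -0.056 (adjusted p = 0.39) with library size alone, -0.095 (adjusted p = 0.14) with 10 counts required in every culture and -0.16 (adjusted p = 0.063) in a fit of only 6 cultures, which has fewer samples. Between *KD2* and *KD1* it was 0.17 (adjusted p = 0.016) with library size alone. That scaling moved the median of all genes by 0.13 there and by 0.11 in *KD2* against *WT*. *Runx2* kept between -1.67 and -1.61 in *KD1* and between -0.52 and -0.37 in *KD2*; *Runx3* between -1.89 and -1.79 and between -0.41 and -0.27; *Cbfb* between -0.61 and -0.55 and between -0.96 and -0.79, with *KD2* against *KD1* between -0.38 and -0.19 for *Cbfb*. With the replicate block, in which numbers did not pair the cultures, no call of a member changed (*Runx2* in *KD1* -1.66, *Runx1* in *KD2* -0.17), and 2560 genes were called in *KD1*, 3227 in *KD2* and 3552 between the lines.

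Requiring 10 counts in every culture tests fewer genes and removes those silent in 1 line, and left 1319 genes called in *KD1*, 1698 in *KD2* and 1914 between the lines, against 2568, 3235 and 3556; in the 6 lists it left 13 in *KD1* and 8 in *KD2*, against 20 and 16. The list genes named by rule and *Vangl2* gave 389 values, 385 on the same side of the call. Leaving out 1 culture moved the fold of *Tle2* in *KD1* (to -3.82, without *KD1* replicate 1), *Mmp9* in *KD1* and *KD2* (to 5.50 and 2.96) and *Foxa1* in *KD1* (to 4.92, all 3 without *WT* replicate 2) by over 1.5 times. *Socs3* in *KD2* was 0.98 without *WT* replicate 1, and 3 uncalled differences changed sign with 1 culture left out: *Hipk2* in *KD1* (0.032, range -0.13 to 0.032) and *Foxa1* in *KD2* (0.27, range -1.16 to 0.27) without *WT* replicate 2, and *Vangl2* in *KD2* (-0.038, its lowest) without *WT* replicate 1.

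With the longest annotated transcript as length, the share of *Runx1* in the Runx sum was 30.8%, 57.0% and 34.7% in *WT*, *KD1* and *KD2*, and by counts alone 34.6%, 60.6% and 38.9%; it was highest in *KD1* under both, as under merged exons. The *Cbfb* ratio was 1.91, 2.70 and 1.29 with the longest transcript. Group sizes of 3 and 1 clone per edit limit what these differences can be assigned to, and counts of 29 or fewer limit *Runx2os1* and the antisense overlap.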
